A study of Canis lupus familiaris with 30 samples.

Results

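Transcripts of the machinery that docks, primes and fuses secretory vesicles were followed across 30 canine thyroid carcinomas. The genes were those with the symbols SNAP25, SYP, SYT1, SYT4, STX1A, SV2A, RAB3A, VAMP2 and CPLX2, and 8 of these 9 were matched to a gene by symbol among the 30424 genes of the count table. VAMP2 was not analysed here. The RNA came from frozen primary thyroid tumors that pet dogs developed without any experimental treatment, and each library was made from bulk tumor tissue. The study sorted its tumors into follicular and medullary thyroid carcinomas, but the labels of the samples carry neither name, so all 30 tumors form a single group here and each is called by its library name. In bulk tissue, fewer cells of a type and less RNA per cell cannot be told apart.

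Neurons and endocrine cells release their signals by fusing vesicles with the plasma membrane when calcium enters. A bundle of SNARE proteins pulls the membranes together, with STX1A and SNAP25 on the plasma membrane and a VAMP protein on the vesicle. Complexins such as CPLX2 clamp and prime this bundle, synaptotagmins sense the calcium, RAB3A helps vesicles dock, and SYP and SV2A are membrane proteins of the vesicle itself. In the thyroid, the calcitonin-producing C cells store peptide hormone in such regulated vesicles. Follicular cells secrete thyroglobulin into the follicle and take it up again to release thyroid hormone.

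The tumors had between 12288945 and 45148677 reads counted on genes, with a median of 25569678. A level below is log2 of the count divided by the median-of-ratios size factor of the tumor, plus 1. TC538 had the smallest size factor, 0.279 against a highest value of 1.62, so its low counts are the least precise. None of the 435 pairs of tumors had identical counts (0 pairs), and Spearman's correlation between tumors ranged from 0.62 to 0.963 over the 18711 genes that reached 10 counts in 5 or more tumors. Clustering on 742 variable genes that included neither the 8 genes nor any other gene of the vesicle lists below gave a larger branch of 25 tumors and a smaller branch of 5 (TC1020, TC1473, TC1601, TC1936 and TC2289). The branches were drawn from these counts and not from the sample labels. Values are therefore given by tumor, and the branches are neither averaged nor tested against each other. The paper's own expression clusters held 25 follicular and 5 medullary tumors. Its text names TC1020, TC1601, TC1936 and TC2289 as medullary. The paper reports loss of a key thyroid transcription factor in TC1088 alone. It treats this tumor as an outlier and left it out of differential expression. It also proposes that the tumor might be de-differentiated. Here TC1088 stayed among the 25 tumors of the larger branch, and leaving it out was an alternative.

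SNAP25, SYT4, CPLX2 and SYP were near silent or modest in most tumors and very high in 5, and these were the same 5 tumors each time. They were the tumors of the smaller branch. Of all 18711 genes, 337 (1.8%) had these 5 tumors as their highest. SYT1, the calcium sensor of fast release, did not share this order: its highest level was in TC1088, a tumor of the larger branch, and TC1601 and TC1936 were among its low tumors. STX1A, RAB3A and SV2A were detected in every tumor and varied less.

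**Figure D1:**
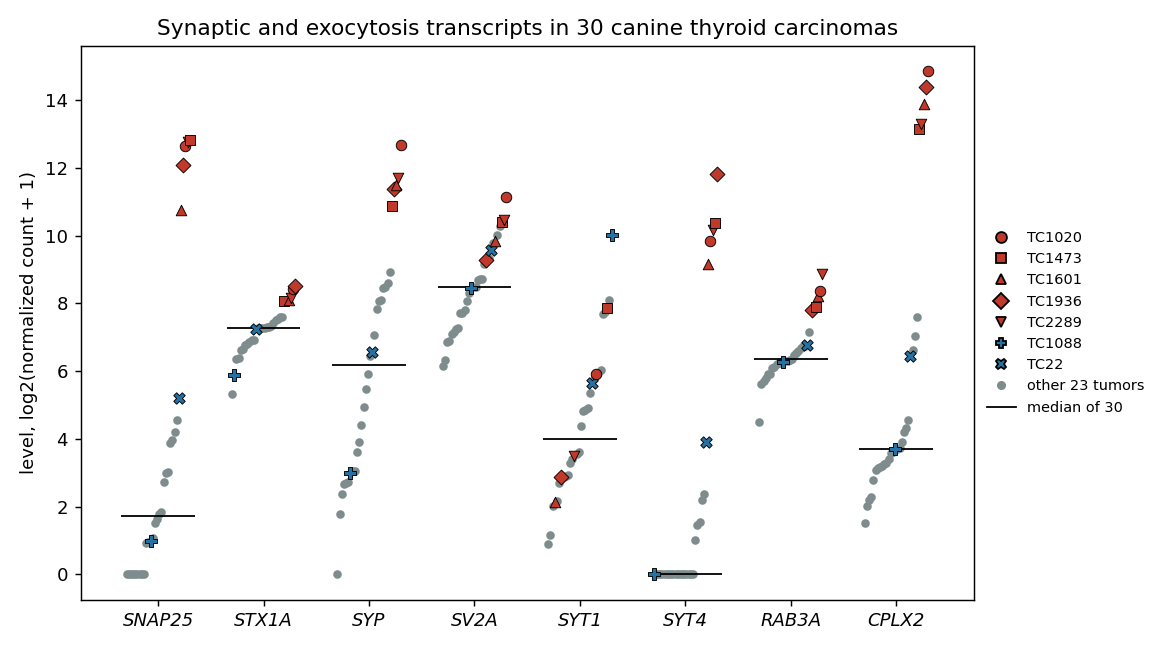
Level of each of the 8 genes, log2(normalized count + 1), in 30 tumors, one point a tumor, with a bar at the median. Red symbols are the 5 tumors of the smaller branch, blue symbols TC1088 and TC22, and grey points the other 23 tumors: the red symbols sit above all others for SNAP25, SYT4, SYP and CPLX2, and TC1088 is highest for SYT1.

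Among the membrane SNAREs, SNAP25 (ENSCAFG00000005662) had the widest range of levels. Its level was lowest at 0.00, had a median of 1.72 and reached 12.83, which corresponds to counts of 0, 2 and 7985. The 5 high tumors had levels of 12.83 in TC1473, 12.76 in TC2289, 12.64 in TC1020, 12.08 in TC1936 and 10.75 in TC1601. The next tumor, TC22, had a level of 5.20 from 51 counts, so a gap of 5.55 separated it from TC1601. Below it, TC1953 had 25 counts, TC1213 had 22, and TC2110 and TC815 had 17 each. SNAP25 had 0 counts in 9 tumors and no more than 3 counts in 18. A count of 0 is compatible with up to 3 counts by counting error alone, so a low level was not detectable at this depth in most tumors.

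STX1A (ENSCAFG00000012623), the syntaxin that pairs with SNAP25, was detected in all tumors with 11 to 357 counts. Its level was lowest at 5.34 in TC538, had a median of 7.29 and was highest at 8.53 in TC1936. TC1020 followed at 8.44, TC2289 at 8.17, TC1601 at 8.10, TC2011 at 8.09 and TC1473 at 8.07. The tumors of the smaller branch were thus high for STX1A too, but TC2011 lay among them and no gap set them apart. The SD over tumors was 0.72, at percentile 27.4 of all genes tested, so STX1A varied less than most genes while its partner SNAP25, with an SD of 4.30, stood at percentile 99.9.

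CPLX2 (ENSCAFG00000016716), the complexin of regulated exocytosis, reached the most counts of the 8 genes in any tumor. Its level was lowest at 1.51 in TC1218, had a median of 3.70 and was highest at 14.86 in TC1020, where 30767 counts fell on this gene. Levels in the other high tumors were 14.39 in TC1936, 13.89 in TC1601, 13.31 in TC2289 and 13.16 in TC1473. TC1241 came next at 7.61 with 194 counts, a gap of 5.55, followed by TC2110 at 7.04, TC1213 at 6.63 and TC22 at 6.45. Unlike SNAP25, CPLX2 was therefore measured at intermediate levels in several tumors of the larger branch. At its highest, the gene took 0.128% of all counts of a tumor.

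The synaptotagmins SYT4 and SYT1 differed in where they were high. SYT4 (ENSCAFG00000017681), a synaptotagmin of dense-core vesicles, had 0 counts in 19 tumors, no more than 3 in 24 and at least 10 in 6. Its levels were 11.82 in TC1936, 10.38 in TC1473, 10.16 in TC2289, 9.85 in TC1020 and 9.17 in TC1601, against a median of 0.00. TC22 was again the next tumor, with 20 counts and a level of 3.91, after a gap of 5.26. The highest count of SYT4 in any tumor was 3421.

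SYT1 (ENSCAFG00000005766) had a lowest level of 0.91 in TC1869, a median of 4.00 and a highest of 10.03 in TC1088, the last from 1048 counts. TC812 followed at 8.11, TC1473 at 7.88, TC1994 at 7.75 and TC1953 at 7.69, so 4 of the 5 highest tumors belonged to the larger branch. The remaining tumors of the smaller branch lay at 5.91 in TC1020, 3.49 in TC2289, 2.88 in TC1936 and 2.15 in TC1601. They overlapped the rest entirely, and TC1601, with 4 counts of SYT1, had 2006 of SNAP25. SYT1 had a median of 20 counts over tumors. TC1088, highest for SYT1, had 1 count of SNAP25, while TC1473 was highest for SNAP25 and at rank 3 for SYT1. The SD of SYT1 was 2.25, at percentile 93.8.

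Of the vesicle membrane proteins, SYP (ENSCAFG00000015805), or synaptophysin, is a routine marker of neuroendocrine cells. Its level was lowest at 0.00 in TC538, had a median of 6.18 and was highest at 12.68 in TC1020. TC2289 had 11.70, TC1601 11.51, TC1936 11.37 and TC1473 10.87. The gap to the next tumor was 1.95, smaller than for SNAP25, SYT4 and CPLX2, because TC1979 reached 8.92 with 601 counts. TC2110 at 8.61, TC1593 at 8.49, TC1869 at 8.10 and TC1241 at 8.06 also had clear SYP signal, and the median count over tumors was 72. SYP was thus well measured in many tumors in which SNAP25 was at or near 0 counts, TC1593, TC1869 and TC1241 among them with 0.

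SV2A (ENSCAFG00000011588), a vesicle glycoprotein found in neurons and endocrine cells, was present in every tumor with 32 to 2351 counts. Its level was lowest at 6.14 in TC2288, had a median of 8.50 and was highest at 11.15 in TC1020. TC2289 had 10.47 and TC1473 10.42, but TC1241 at 10.30 and TC640 at 10.01 came before TC1601 at 9.83, and TC1936 had 9.28, at rank 10 from the top. The SD was 1.33, at percentile 74.3.

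RAB3A (ENSCAFG00000014945), the small GTPase of vesicle docking, had a lowest level of 4.49 in TC538 from 6 counts, a median of 6.36 and a highest level of 8.87 in TC2289. TC1020 had 8.37, TC1601 8.22, TC1473 7.91, TC1869 7.86 and TC1936 7.80. As for STX1A, 1 tumor of the larger branch lay among the 5 of the smaller. Its SD of 0.93 stood at percentile 48.3.

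Across the 8 genes, 5 had an SD above 2 on the log2 scale (SNAP25, CPLX2, SYT4, SYP and SYT1), where 9.17% of all genes tested did. With a pseudocount of 8 in place of 1 they were 4, since the SD of SYT1 was then 1.74. The SD was 4.08 for CPLX2, 3.84 for SYT4 and 3.42 for SYP. The 5 tumors of the smaller branch were the 5 highest for 4 of the 8 genes. They were among the 6 highest for STX1A and RAB3A as well. SYT4 reached 10 counts in only 1 tumor outside that branch, so it passed the count filter through the tumors where it was high. Within the smaller branch no tumor was highest throughout: TC1473 led for SNAP25, TC1936 for SYT4 and STX1A, TC2289 for RAB3A, and TC1020 for SYP, SV2A and CPLX2.

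Each gene was next set against a relative from its own family, as the difference of the 2 levels within a tumor. Where both genes are well counted, such a difference depends little on the size factor. Where a gene has 0 counts, the difference rests on the level of the other gene alone and moves with the size factor. Differences are compared only between tumors, since gene length was not taken into account. SNAP23, the SNAP25 relative that serves secretion in most tissues, was even across tumors, with levels of 8.39 to 10.43 and an SD of 0.51, at percentile 8.1. The difference SNAP25 minus SNAP23 had a median of -8.30 and was above 0 in 5 tumors, at 3.67 in TC1020, 3.30 in TC2289, 2.61 in TC1473, 1.92 in TC1936 and 1.76 in TC1601. TC22 came next at -4.47.

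SYT1 and SYT7 did not have the same highest tumor, though TC1473 was among the 5 highest for both. SYT7, a synaptotagmin of slow release, had levels of 4.64 to 12.85 and was highest in TC1601 at 12.85, TC1936 at 12.75, TC1020 at 12.16, TC1473 at 11.97 and TC2289 at 11.29. The difference SYT1 minus SYT7 ran from -10.70 to 5.39 with a median of -4.35, and TC1088 had the highest value. TC1601 and TC1936, which were among the low tumors for SYT1, thus had the highest SYT7 levels.

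For the remaining families the picture varied. SYP minus SYPL1, a widely expressed synaptophysin relative, ran from -14.94 to 2.86 with a median of -5.05. The lowest value was that of TC538, which had 0 counts of SYP. SYT4 minus SYT11 ran from -10.35 to 1.11, with a median of -7.04. SYT4 had 0 counts in 19 tumors, and in these the difference was set by SYT11 alone. CPLX1, the other brain complexin, had levels of 2.20 to 8.18 and its highest tumors were not those of the smaller branch, so that CPLX2 minus CPLX1 ran from -5.63 to 9.92 around a median of -1.83. SV2B had levels of 0.00 to 12.05, highest in TC1020, and SV2A minus SV2B ran from -0.90 to 10.30 around a median of 4.49. The highest value was that of TC1241, which had 0 counts of SV2B. STX1A minus STX4 ran from -3.75 to -0.05, with the tumors of the smaller branch at the top, whereas STX1A minus STX3 ran from -3.97 to -1.38 and had tumors of both branches at the top. RAB3A minus RAB3D ran from -4.78 to 0.76 around a median of -2.68.

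**Figure D2:**
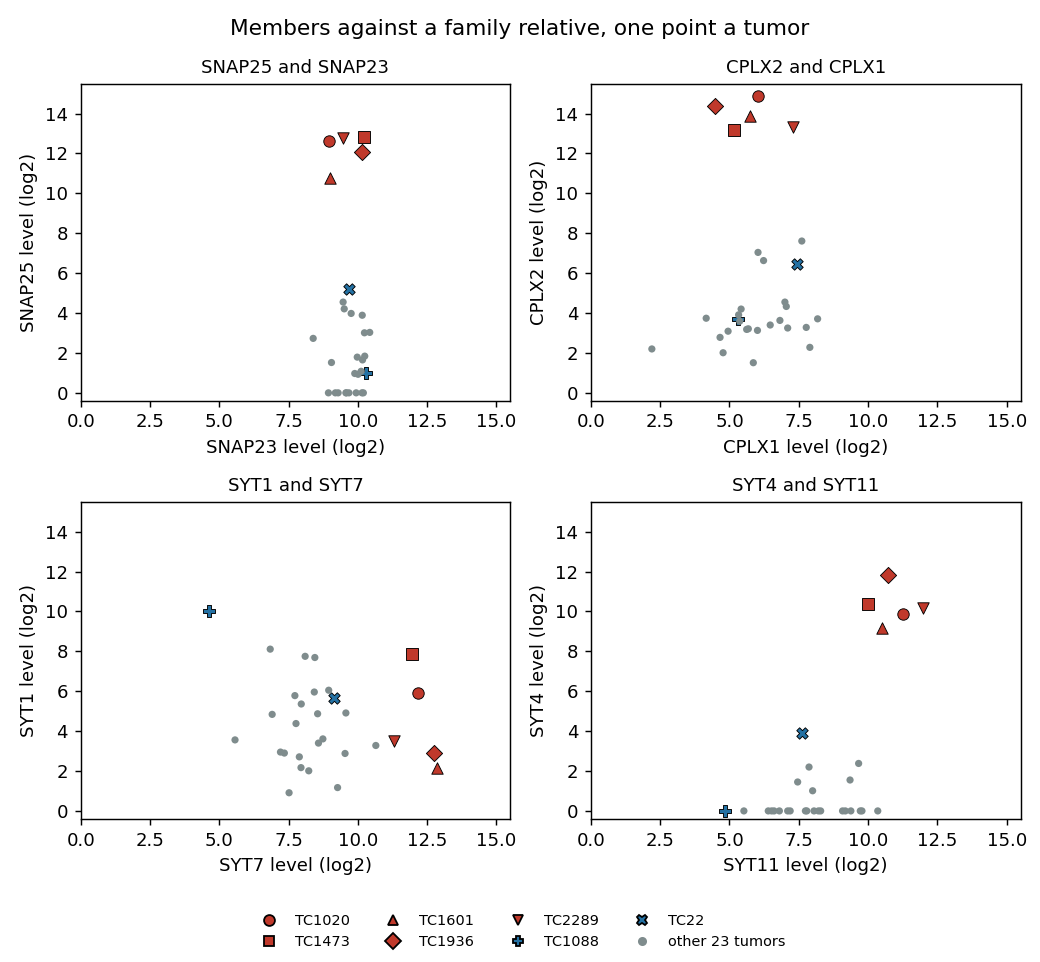
Level of a vesicle gene (vertical axis, log2) against its family relative (horizontal axis, log2), one point a tumor, with the 5 tumors of the smaller branch in red and TC1088 and TC22 in blue. SNAP23 stays between 8.39 and 10.43 while SNAP25 spans 0.00 to 12.83, and TC1088 stands out for SYT1 where the red symbols stand out for SYT7.

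Other genes of the vesicle cycle were described from 7 lists (SNARE proteins, SNARE regulators, calcium sensors, vesicle proteins, RAB proteins and their effectors, active zone and adhesion proteins, and endocytosis). Of 140 listed genes, 134 were measured and 125 passed the count filter. An SD above 2 was seen for 34 of the 125 (27.2%), beside the 9.17% of all genes, and the median SD was 1.30 beside 0.95. The 5 tumors of the smaller branch were the 5 highest for 22 of the 125 (17.6%), beside 1.8% of all genes. The filter asked for 10 counts in 5 tumors, which is also the size of the smaller branch. A gene near silent elsewhere, such as SVOP, passed it only through those 5. For such genes the order and a large SD followed from passing the filter. The shares of all genes were taken under the same filter, and these shares were not tested against each other.

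SNARE proteins other than the members were the most even list. An SD above 2 was seen for 1 of 16, the median SD of the list was 0.66, and for 0 of the 16 were the 5 tumors of the smaller branch the highest.

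Among 19 SNARE regulators, 5 exceeded an SD of 2. UNC13A, which primes vesicles, had levels of 10.61 to 12.58 in the 5 tumors of the smaller branch, and its highest level elsewhere was 5.37 in TC1979. CADPS, the priming factor of dense-core vesicles, lay at 10.96 to 12.35 in the same 5 tumors, and TC2011 followed at 9.74. CPLX3, a complexin of the retina, had levels of 5.34 to 9.07 there and 2.88 in the next tumor, TC1213. STXBP5L and UNC13C also exceeded an SD of 2 but had other tumors among their 5 highest. STXBP5L reached 15.30 in TC1473 but 10.15 in TC1601, and TC640 had 11.96.

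Of 13 calcium sensors, 5 exceeded an SD of 2 (SYT13, SYT14, SYT3, SYT5 and SYT6). SYT14 lay at 7.57 to 10.66 in the smaller branch, above 6.95 in TC2110. SYT13 split that branch, with 13.20 in TC1473 and 11.33 in TC1020 but 3.50 in TC1601 and 1.04 in TC1936, and TC2011 reached 10.81. Both SYT1 and SYT13 were thus low in TC1601 and TC1936.

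Vesicle proteins with an SD above 2 numbered 6 of 18. SVOP, a transporter-like vesicle protein related to SV2, had a median level of 0.00 and levels of 7.69 to 11.61 in the 5 tumors of the smaller branch, with TC22 next at 2.57. SLC18A1, which loads monoamines into the vesicles of endocrine cells, lay at 6.28 to 10.77 there, with TC22 again next at 4.55. Its neuronal counterpart SLC18A2 followed other tumors: it was highest in TC1241 at 12.48 and did not exceed 6.41 in any tumor of the smaller branch. SYN1, which tethers vesicles to the cytoskeleton, reached 8.41 to 10.89 in those 5 tumors and 6.14 at most elsewhere. SV2C was at 9.80 in TC1473 but also at 9.47 in TC1088, the tumor with the most SYT1.

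RAB proteins and effectors had 6 of 22 genes above an SD of 2 and 6 with the smaller branch at the top. RIMS2, an active zone protein that binds RAB3, lay at 9.29 to 12.81 in the 5 tumors, with TC640 next at 8.76. RAB3B and RAB3C also had these tumors as their highest: RAB3B lay at 7.07 to 9.74 in them, against 6.63 in TC1979, and RAB3C at 4.32 to 10.67, against 3.03 in TC538. MADD, which exchanges nucleotide on RAB3, was high in every tumor (9.64 to 13.31) with the same 5 on top. RAB27B, a RAB of secretory granules, reached 10.94 in TC1473 and 10.24 in TC1088, so TC1088 came second for it.

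The active zone and adhesion list had the largest share of variable genes, 8 of 16. NRXN3, a presynaptic adhesion receptor, lay at 9.57 to 12.49 in the smaller branch, above 8.82 in TC67. PCLO, a scaffold of the active zone, lay at 10.60 to 11.92, above 8.44 in TC640. APBA2 did not follow this order, with 10.05 in TC2289 and 9.98 in TC1241 but 1.64 in TC1936. Among 21 endocytosis genes, 3 exceeded an SD of 2 (SNAP91, AMPH and SH3GL3). SNAP91, the neuronal clathrin adaptor, lay at 9.84 to 12.26 in the smaller branch and 6.74 at most elsewhere, while AMPH was at 9.36 in TC1020 and 0.00 in TC1936.

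**Figure D3:**
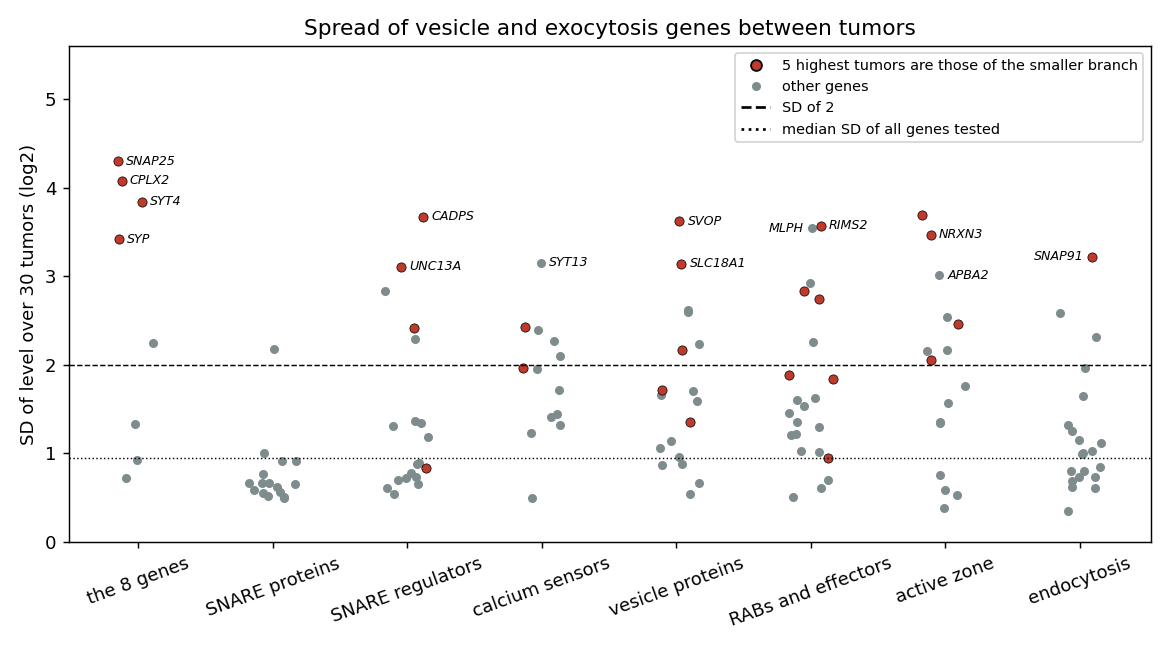
SD of the level over 30 tumors (log2, vertical axis) for the 8 genes and for the genes of the 7 vesicle lists that passed the count filter, one point a gene. Red points are genes whose 5 highest tumors are those of the smaller branch, the dashed line marks an SD of 2 and the dotted line the median of all genes tested, 0.95: SNARE proteins sit low, with 1 of 16 above an SD of 2, and CADPS among the regulators reaches 3.67.

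Markers of cell types were read in the same tumors. Marker genes were not left out of the clustering. A difference in their levels between the branches is therefore in part built in. The mean level of 11 C-cell and neuroendocrine genes was 12.16 to 14.80 in the 5 tumors of the smaller branch and 2.66 to 8.12 in the other 25, in which TC22 was highest. CALCA, the calcitonin gene, had 439003 counts in TC1020, 247126 in TC1473, 132876 in TC1601, 586358 in TC1936 and 95 in TC2289. TC2289 thus had SNAP25, SYP and RAB3A at the top of their ranges with little CALCA. SCG2, a granin of dense-core vesicles, had 159262 counts in TC2289.

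The C-cell list therefore moved with SNAP25, SYT4, SYP and CPLX2 across the 30 tumors, and its part in these levels was not tested. Follicular markers lay at 4.97 to 10.60 in the smaller branch and at 3.37 to 15.12 in the larger one, where TC1088 was lowest. The neuron list had a mean level of 2.61 to 5.94 in the smaller branch and 1.87 to 4.57 in the larger one. Its genes did not behave alike. ELAVL4, an RNA-binding protein of neurons, had 454 counts in TC1020, 999 in TC1473, 143 in TC1601, 167 in TC1936 and 181 in TC2289, and fewer than 10 in 24 of the 30 tumors. PRPH, a neuronal intermediate filament, had 2459 counts in TC1020, 1845 in TC2289, 806 in TC1473 and 518 in TC1601 but 22 in TC1936. STMN2, a microtubule regulator of neurons, had 5398 in TC1473, 1376 in TC1020 and 208 in TC1601 but 18 in TC2289 and 2 in TC1936. The neurofilament gene NEFH had 2152 in TC1601 and its most counts, 2659, in TC1744, and NEFL had its most, 2238, in TC1241, both of the larger branch. The catecholamine enzymes TH and DBH had no more than 31 and 84 counts in any tumor. The neuron list thus held genes that were high in tumors of the smaller branch, and its part in the levels of the vesicle genes was not tested. The Schwann cell genes CDH19 and PMP2 had no more than 7 and 4 counts. Mean levels of the nerve and Schwann list were 3.73 to 5.85 in the smaller branch and 3.20 to 5.19 in the larger one. The parathyroid list of PTH, GCM2 and CASR lay at 5.26 to 8.26 in the smaller branch. CASR had 10067 to 47292 counts there, while PTH had no more than 296 and GCM2 no more than 5. The list reached 10.61 in TC2288 of the larger branch, which had 25445 counts of PTH and 178 of GCM2. Endothelial, fibroblast, leukocyte and muscle means overlapped between the branches.

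Whether the genes varied together was asked inside the larger branch alone, over 25 tumors, so that the separated tumors could not set a coefficient. Of the 8 genes, 6 reached 10 counts in most of these tumors. SNAP25 reached 10 counts in 5 of the 25 and SYT4 in 1, so neither was tested. Over 15 pairs, Spearman's rho ranged from -0.15 to 0.58 with a median of 0.19, and 12 pairs were positive. One pair was called at an adjusted p below 0.05, SV2A with RAB3A (rho = 0.58, two-sided permutation p = 0.00294, Benjamini-Hochberg adjusted p = 0.0441).

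Pearson's r for SV2A and RAB3A was 0.46 (permutation p = 0.0188, adjusted p = 0.094), and without TC2288 and TC1241, the tumors farthest from the median of SV2A, it was 0.35 (permutation p = 0.1). Without TC538, rho was 0.53 with an adjusted permutation p of 0.122, so the call was lost without that shallow library. SV2A with CPLX2 had rho = 0.46 (permutation p = 0.0204, adjusted p = 0.153) and r = 0.50 (permutation p = 0.0107). By Pearson's r, 0 of the 15 pairs passed the adjustment. SYT1 had rho between -0.15 and 0.15 with each of the other 5 genes.

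**Figure D4:**
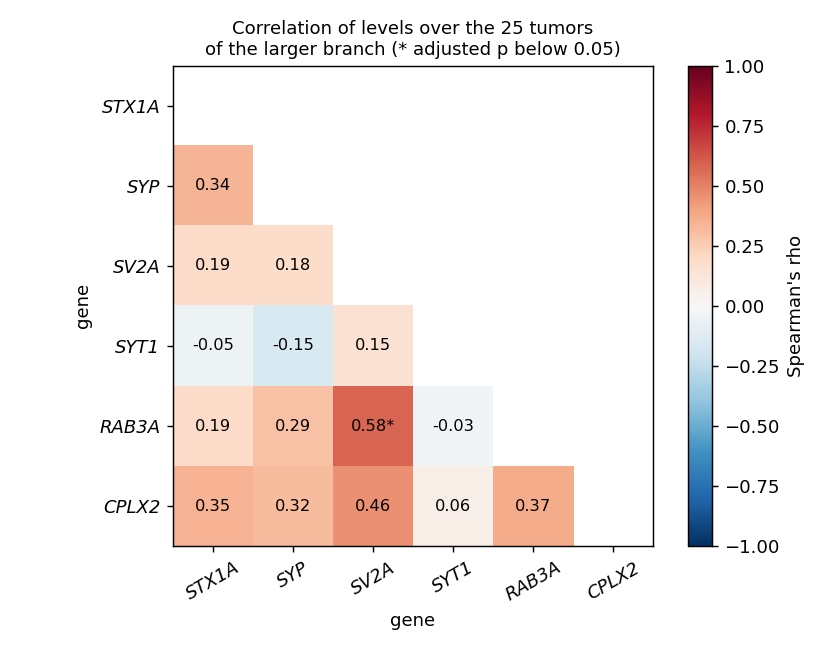
Spearman's rho between the levels of 6 vesicle genes over the 25 tumors of the larger branch, as a colour scale, with an asterisk where the adjusted p was below 0.05. SV2A and RAB3A have the highest coefficient, 0.58, and SYT1 stays near 0 with the rest.

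The same question was put to all 18105 genes with edgeR's quasi-likelihood test, which fitted each gene's counts on the level of one member, and slopes are log2 units per SD of that level. Of the 30 ordered pairs of members, 4 (13.3%) were called. CPLX2 rose with SYP by 1.23 (SE 0.30, adjusted p = 0.0424), with SV2A by 1.18 (SE 0.27, adjusted p = 0.0269) and with RAB3A by 1.10 (SE 0.39, adjusted p = 0.0305), and SV2A rose with RAB3A by 0.67 (SE 0.22, adjusted p = 0.0222). The background was 0.602% of all genes called higher with SYP, 0.79% with SV2A and 16.8% with RAB3A, so a call with RAB3A singles out little. Without TC538 the 4 slopes were 1.15, 1.13, 0.92 and 0.60 in the same order, and edgeR's adjusted p rose to 0.14, 0.0534, 0.125 and 0.113. With the log2 size factor in the model they were 1.20, 1.14, 1.04 and 0.64, with adjusted p of 0.16, 0.108, 0.216 and 0.272.

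The number of genes called differed widely among members. RAB3A had 3036 genes higher and 3094 lower (17.1%) and STX1A 646 higher (3.57%) and 2477 lower (13.7%). SYT1 had 220 higher (1.22%) and 22 lower (0.122%), SYP 109 higher and 213 lower (1.18%), SV2A 143 higher and 87 lower (0.481%), and CPLX2 23 higher (0.127%) and 0 lower (0%). For CPLX2, 2055 genes had an unadjusted p below 0.05 in edgeR's test, in either direction, and DESeq2 called 8 lower. Without TC538, RAB3A had 864 called genes in all and STX1A 266.

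Of 120 genes of the vesicle lists tested in this way, 21 (17.5%) were called higher and 13 (10.8%) lower with RAB3A, beside 16.8% and 17.1% of all genes. With STX1A, 7 (5.83%) were called higher and 10 (8.33%) lower, beside 3.57% and 13.7% of all genes. For these members the shares called were thus close to those of all genes or below them, except for the genes higher with STX1A. The priming factor CADPS and the calcium sensors SYT2, SYT6 and SYT13 were among those 7. Without TC538 the counts were 7 and 0 with RAB3A, and 0 and 3 with STX1A. With SYP, 5 (4.17%) were called higher, among them the active zone proteins BSN, APBA1 and LIN7B, and 2 (1.67%) lower, beside 0.602% and 1.18% of all genes, and without TC538 none was (0 and 0). With SV2A, 4 (3.33%) were called higher (CPLX1, RIMS3, APBA1 and NRXN2) and 0 lower, beside 0.79% and 0.481% of all genes. RIMS3, an active zone protein, had a slope of 1.39 with SV2A without TC538 (edgeR adjusted p = 0.00444) and NRXN2 of 1.11 (adjusted p = 0.0323), while APBA1 and CPLX1 lost their calls (adjusted p = 0.0886 and 0.0616). With the size factor in the model, RIMS3 alone of the 4 passed (slope 1.45, edgeR adjusted p = 0.006), and NRXN2 had a slope of 1.16 with an adjusted p of 0.0523.

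With SYT1, 3 vesicle genes (2.5%) were called higher and 0 lower, beside 1.22% and 0.122% of all genes. STON2, an endocytic adaptor for synaptotagmin, rose by 1.14 per SD (SE 0.16, edgeR adjusted p = 6.72e-05), SV2C by 1.32 (SE 0.28, adjusted p = 0.0105) and RAB27B by 1.08 (SE 0.27, adjusted p = 0.0423). PCSK2, a convertase that processes prohormones in secretory granules, also rose with SYT1, by 1.22 (SE 0.28, adjusted p = 0.0199). These 4 calls rested on TC1088. Without it the slopes were 0.67 for STON2, 0.18 for SV2C, -0.10 for RAB27B and 0.65 for PCSK2, with edgeR's adjusted p of 0.188, 0.955, 0.968 and 0.793, and the count of all genes called with SYT1 was 8 in place of 242.

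With CPLX2, 2 vesicle genes (1.67%) were called higher, beside 0.127% of all genes: APBA2 by 1.85 (SE 0.36, edgeR adjusted p = 0.0199) and SYT12 by 1.31 (SE 0.27, adjusted p = 0.0324), and so was SCG2 by 1.81 (SE 0.37, adjusted p = 0.0374). APBA2 kept its call without TC538 (slope 1.87, edgeR adjusted p = 0.035), and SYT12 and SCG2 each had an adjusted p of 0.0536, with slopes of 1.32 and 1.85. With the size factor in the model, the slope of SCG2 was 1.75 with an adjusted p of 0.203.

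Markers were set beside the members in the same 25 tumors, in 66 correlations of 6 genes with 9 marker lists and 2 measures of depth, of which 4 were called. SYT1 was lower where follicular markers were higher (rho = -0.62, permutation p = 0.00122, adjusted p = 0.0268, r = -0.68 with permutation p = 0.00015). Without TC1088 and TC812, r was -0.52 (permutation p = 0.011). The adjusted permutation p was 0.0574 with TMM scaling (rho = -0.57) and 0.0538 without TC538 (rho = -0.63). In TC1088, the tumor with the most SYT1, the mean follicular level was 3.37 and TG, which encodes thyroglobulin, had 12 counts.

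**Figure D5:**
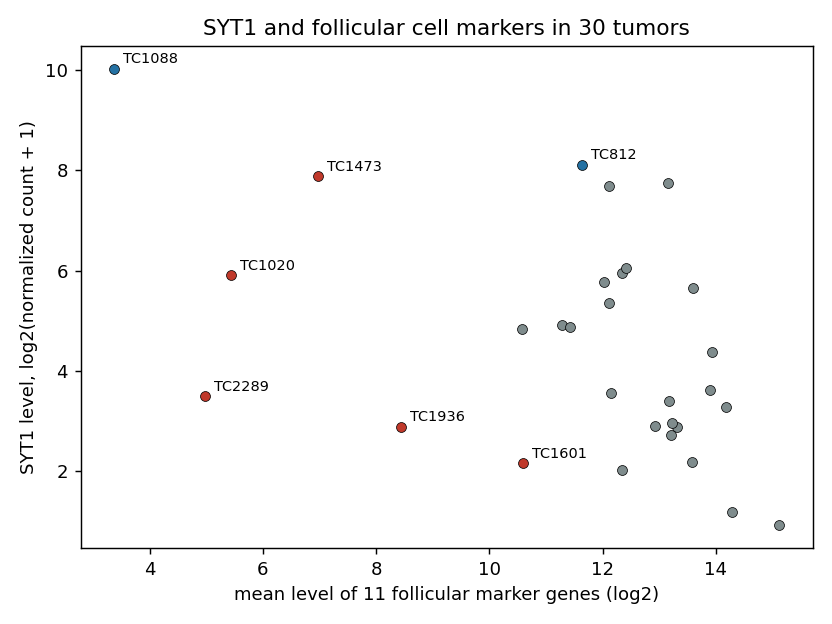
Level of SYT1 (vertical axis, log2) against the mean level of 11 follicular marker genes (horizontal axis, log2) in 30 tumors, with the 5 tumors of the smaller branch in red. TC1088 lies at the upper left, at 3.37 for the markers and 10.03 for SYT1, and the 25 tumors of the larger branch, over which rho was -0.62, include it.

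CPLX2 was higher where the neuron list was higher (rho = 0.62, permutation p = 0.00119, adjusted p = 0.0268, r = 0.61). Without TC1241 and TC2110, r was 0.44 (permutation p = 0.0347). STX1A was higher with the nerve and Schwann list (rho = 0.60, permutation p = 0.00214, adjusted p = 0.0353, r = 0.49), and r without TC538 and TC1088 was 0.48 (permutation p = 0.0198). RAB3A was higher in libraries with a larger size factor (rho = 0.63, permutation p = 0.00117, adjusted p = 0.0268, r = 0.71), with r at 0.54 (permutation p = 0.00767) without TC538 and TC1869. With the number of genes reaching 10 counts, RAB3A had rho = 0.49 (permutation p = 0.0131, adjusted p = 0.0961), which was not called. The RAB3A level thus moved with the size factor, whose part in its other associations was not tested beyond the model above. Without TC538 alone, none of the 4 passed the adjustment (0 of 66): rho was 0.62 for CPLX2, 0.55 for STX1A and 0.58 for RAB3A, with adjusted permutation p of 0.0538, 0.0808 and 0.0766.

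The genes whose levels ran closest to each member over the 25 tumors are given as a description among 10996 genes with a median normalized count of at least 50. These coefficients share the libraries and their depth. Nearest to SYT1 was VDR, the vitamin D receptor, with rho = 0.79, followed by MYO9B and POGLUT2 at 0.64, and farthest were FAM20B at -0.74 and ELOVL5 at -0.73. For SYP the nearest were GPRIN1 at 0.84, PHF21B at 0.82 and PKMYT1 at 0.80, and the farthest STRADB at -0.75 and SNX31 at -0.74. CPLX2 ran with EFEMP2 at 0.79, PTGIS, the prostacyclin synthase, at 0.75 and SYNPO at 0.74, and against NFXL1 at -0.68 and STOX1 at -0.65.

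SV2A ran with LIX1L at 0.88, HIC1 at 0.85 and TGFB1I1 at 0.83, and against TOM1L1 at -0.82 and RAB9A at -0.78. For RAB3A the nearest were NDUFA13, a subunit of respiratory complex I, at 0.87, IFFO1 at 0.86 and TAF1C at 0.85, with PLOD2 and TBL1XR1 both at -0.83. STX1A ran with VWA7 at 0.70, MAP1B, a microtubule protein of neurons, at 0.69 and GNG2 at 0.68, and against SPCS2 and NEK4 at -0.74. No gene of the vesicle lists was among the 3 nearest to any of the 6 members. The lists made up 120 of the 18105 genes tested with edgeR, so a pick of 3 genes would rarely hold one. Their absence therefore says little about the members.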

How the data were processed

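Total RNA libraries with ribosomal RNA removed were sequenced from frozen thyroid tumors of 30 dogs. The authors mapped paired-end reads with STAR to CanFam3.1 and deposited raw counts per Ensembl gene. The strand setting of the counting is not given in the sources used here, so overlapping and antisense genes are uncertain. The table held 30424 genes, 15780 with a symbol, by which genes were matched.

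The labels give a single group. Levels are log2(count / median-of-ratios size factor + 1), with a pseudocount of 1. Tumors were clustered by Ward's method on genes with a mean above 2 and a variance above 6. Within the larger branch of 25, correlations were tested with 100000 permutations (two-sided, Benjamini-Hochberg adjustment), and associations with edgeR 4.0.16 (TMM, quasi-likelihood test, genes reaching 10 counts in 5 or more tumors) in R 4.3.3. DESeq2 1.42.0, DESeq2 size factors, no count filter, a pseudocount of 8, the size factor as covariate, and leaving out TC1088 or TC538 were alternatives. The edgeR script was tested on simulated data. Python 3.11.15, scipy 1.17.1, pandas 2.3.3 and matplotlib 3.10.9 were used for the rest.

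The members and lists were chosen with earlier results of these data known. Named genes were the members, 1 or 2 family relatives of each, the 3 nearest and 2 farthest genes by rho, and up to 5 genes a vesicle list with an SD above 2 over tumors. SYN1, RAB3B, MADD, PCLO, and the genes named from the edgeR counts (STON2, PCSK2, SYT12, SYT2, CPLX1 with SV2A, RIMS3, APBA1, BSN, LIN7B and NRXN2), were chosen after their values were seen. Results of some listed genes are not reported here. The labels give no sequencing batch. Each p describes the spread between these tumors only.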

Additional observations from a re-analysis of the deposited data

How the results depend on the processing

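The number of genes with the smaller branch as their 5 highest tumors was 4 with TMM scaling and with a pseudocount of 8 too. The branches held the same tumors with a pseudocount of 8 and with the 1000 genes of highest variance, and were not recomputed with TMM scaling. Of the counts of calls and other leading values, 49 were classed as unchanged under an alternative and 22 were not, and the cause was not tested. For a count, unchanged meant within 1.5 times. For the median difference between family relatives, it meant a move of less than the SD of that difference over tumors. The marker correlations called numbered 2 with TMM scaling and 0 without TC538, in place of 4, and the pairs called 0 without TC538, in place of 1. Without TC538, the genes called fell from 3123 to 266 with STX1A, 322 to 7 with SYP, 230 to 102 with SV2A and 6130 to 864 with RAB3A. Without TC1088 they were 8 in place of 242 with SYT1, 368 with SV2A and 38 in place of 23 with CPLX2. With the size factor in the model they were 190 with STX1A, 10 with SYP, 42 with SV2A and 317 with RAB3A. DESeq2 called 461 genes with SYT1 (296 higher and 165 lower), 999 with SYP (454 and 545), 1437 with SV2A and 51 with CPLX2, and left 703 adjusted p as NA for SV2A. Without the count filter they were 653 with SYT1, 541 with SYP, 458 with SV2A and 79 with CPLX2. With DESeq2 size factors in edgeR, 159 genes were higher and 142 lower with SV2A, against 143 and 87.

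Uncalled correlations near 0 changed sign. That of STX1A with SYT1 was 0.07 with TMM scaling and 0.06 without TC1088. With TMM scaling, rho was 0.03 for STX1A with leukocyte markers, 0.05 for SYT1 with nerve markers, 0.03 for SYT1 with the size factor, 0.03 for SV2A with follicular markers and 0.01 for RAB3A with fibroblast markers. With a pseudocount of 8 it was -0.01 for CPLX2 with nerve markers. Without TC1088 it was 0.01 and 0.02 for SYT1 with endothelial and fibroblast markers, -0.04 for SYP with follicular and endothelial markers and -0.01 for CPLX2 with leukocyte markers. Without TC538 it was -0.02 and -0.10 for SYP with follicular and endothelial markers, 0.02 for RAB3A with parathyroid markers and -0.02 for CPLX2 with nerve markers. No paired analysis was possible because the labels give a single group. SNAP25 and SYT4 could not be followed in the larger branch, where most tumors had no more than 3 counts of either gene.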

Other observations

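TC22, a tumor of the larger branch, ranked next after the 5 tumors of the smaller branch for SNAP25 and SYT4 and carried C-cell transcripts beside follicular ones. It had 10889 counts of CALCA, rank 5 of the 30 tumors and above TC2289, and 573 counts of CALCB. Its SCG2 level of 8.66 was at rank 6. The other genes of the C-cell list ranked from 4 for GFRA4 to 13 for RET and PCSK1. In the same library TG had 151907 counts, at rank 21. The mean level of the 11 follicular markers was 13.60, and PAX8, a follicular transcription factor, was at rank 4 with a level of 14.32. For SVOP and SLC18A1, TC22 also came directly after the 5 tumors of the smaller branch. TC22 was chosen for these values after they were seen, and whether it holds cells of more than 1 kind was not tested.

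TC1088, the tumor with the highest SYT1 level, had 1 count of CALCA, 0 of SCG2 and 1 of SNAP25, but 1720 of PCSK2. Its levels of SV2C and RAB27B were above those of the other 24 tumors of the larger branch. This combination was likewise picked after the values were seen and carries no test. Whether these levels go with the loss that the paper reports for TC1088 was not tested.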
